A study of Mus musculus with 6 samples.

Results

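The genes described here are Myc, the MYC target genes Tfap4, Odc1 and Srm, and 41 factors of ribosome biogenesis, 45 genes in all out of 39179 in the count files. They were chosen by symbol from knowledge of the pathway, with earlier results of these data known, and each matched 1 Ensembl mouse gene. All 45 passed the filter on low counts that left 13846 genes for testing, with 245 to 56715 counts per library. The libraries came from mouse T cells that had been driven in culture towards the Th17 type, the helper T cells that make IL-17, and the design asks what desIgf1 changes in them. desIgf1 is a shortened insulin-like growth factor 1 that binds the IGF-binding proteins poorly. The desIgf1 group had 3 libraries, from cultures with 30 ng/mL of the factor, and the control group had 3 libraries from cultures without it. The labels state no other difference between the groups, and whether they shared animals or culture days is not stated. The starting cells were sorted naive CD4+ T cells from spleens of C57BL/6 mice that carry the reporter alleles Foxp3/GFP, Ifng/Thy1.1 and Il17a/hCD2. For 5 days they were grown on irradiated splenocytes depleted of CD4 cells. The medium held 2.5 ng/mL TGF-β and 20 ng/mL IL-6, with antibodies to IFN-γ and IL-4 at 10 µg/mL each and anti-CD3 in solution at 5 µg/mL. Cells positive for the Il17a reporter and negative for the other reporters were sorted for RNA, so the values describe that selected fraction. The animals' age is not given in the sources used here. One protocol text names desIgf1 for every library, whereas titles and descriptions separate the groups, and the groups follow the titles.

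MYC is a transcription factor of the basic helix-loop-helix leucine zipper class that binds the E-box CACGTG together with its partner MAX. In activated T cells it drives growth, and a large share of its known targets act in making ribosomes. Ribosome biogenesis starts in the nucleolus, where RNA polymerase I transcribes the precursor rRNA. Small nucleolar ribonucleoproteins (snoRNPs) then guide its chemical modification, and separate sets of assembly factors build the 40S and the 60S subunit.

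Gene counts summed to 34567899 to 47929948 per library. Levels are given as CPM, the share of a library's gene counts on the usual counts-per-million scale. In a principal component analysis, axis 1 (43.5% of the variance) set both number 3 libraries apart from the other 4. Axis 2 (27.0%) set the desIgf1 libraries (13.1 to 39.8) apart from the controls (-35.0 to -12.3). The 8 T cell markers checked (Cd3e, Cd4, Trac and others) summed to 5742 to 6287 CPM in desIgf1 libraries and 5663 to 6154 CPM in controls. The 9 Th17 markers summed to 2447 to 2885 CPM with desIgf1 and 1847 to 2065 CPM in controls, and all but Il22 averaged at least 1 CPM. The transcripts of the negatively gated reporters Ifng and Foxp3 summed to at most 2.03 CPM with desIgf1 and 1.83 CPM in controls. Markers of cells that the cultures also held were low. The 7 B cell markers summed to 56.8 to 97.8 CPM with desIgf1 and 69.1 to 175 CPM in controls, nearly all of it from Ighm, with each of the other 6 below 1 CPM on average. The 9 macrophage markers summed to 11.7 to 17.6 CPM with desIgf1 and 5.93 to 15.1 CPM in controls. The 7 dendritic cell markers summed to 1.02 to 3.31 CPM with desIgf1 and 0.745 to 2.29 CPM in controls, with Xcr1, Siglech and Cd209a at 0 in every library. The 4 NK cell markers summed to 7.08 to 11.0 CPM with desIgf1 and 7.15 to 12.1 CPM in controls, with Ncr1 at 0. The 2 CD8 markers summed to 4.98 to 11.0 CPM with desIgf1 and 3.22 to 7.85 CPM in controls, with Cd8a below 1 CPM. Neutrophil and erythroid markers summed to less than 1 CPM in every library. The part of these cells in the results below was not tested.

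Most of the 45 genes had lower fitted levels with desIgf1, by a modest amount, and none passed the test. The fitted log2 fold change was below 0 in 43 of the 45, against 50.9% of all genes tested, with a median of -0.32 and a range of -0.51 to 0.43. The median over all genes was -0.01. The standard errors of single genes ran from 0.09 to 0.28, with a median of 0.17. In edgeR's quasi-likelihood test 0 of the 45 passed an adjusted p of 0.05, as did 0.0% of all genes, and the members' adjusted p-values lay between 0.417 and 0.870. At an unadjusted p under 0.05 there were 4 (8.16% of all genes). Tfap4, Polr1a and Grwd1 were lower, as were 3.42% of all genes, and Odc1 was higher, as were 4.75%. The count was close to the background. DESeq2 and limma voom also called 0 of the 45, where DESeq2 called 0.924% of all genes and limma voom 0.0%. With no filter on low counts edgeR called 0 of the 45 and 0.0711% of all genes. At an unadjusted p under 0.05 there were 9 members with no filter (6.36% of all genes) and 8 with DESeq2 (6.17% of all genes). The shares for DESeq2 and for no filter are of 22504 genes, low counts included, where the main test had 13846. The 95% interval of the log2 fold change included 0 for 41 members. For 43 its lower end lay above -1, the exceptions being Srm and Nhp2. In bulk RNA, fewer cells of a type and less RNA per cell cannot be told apart.

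**Figure D1:**
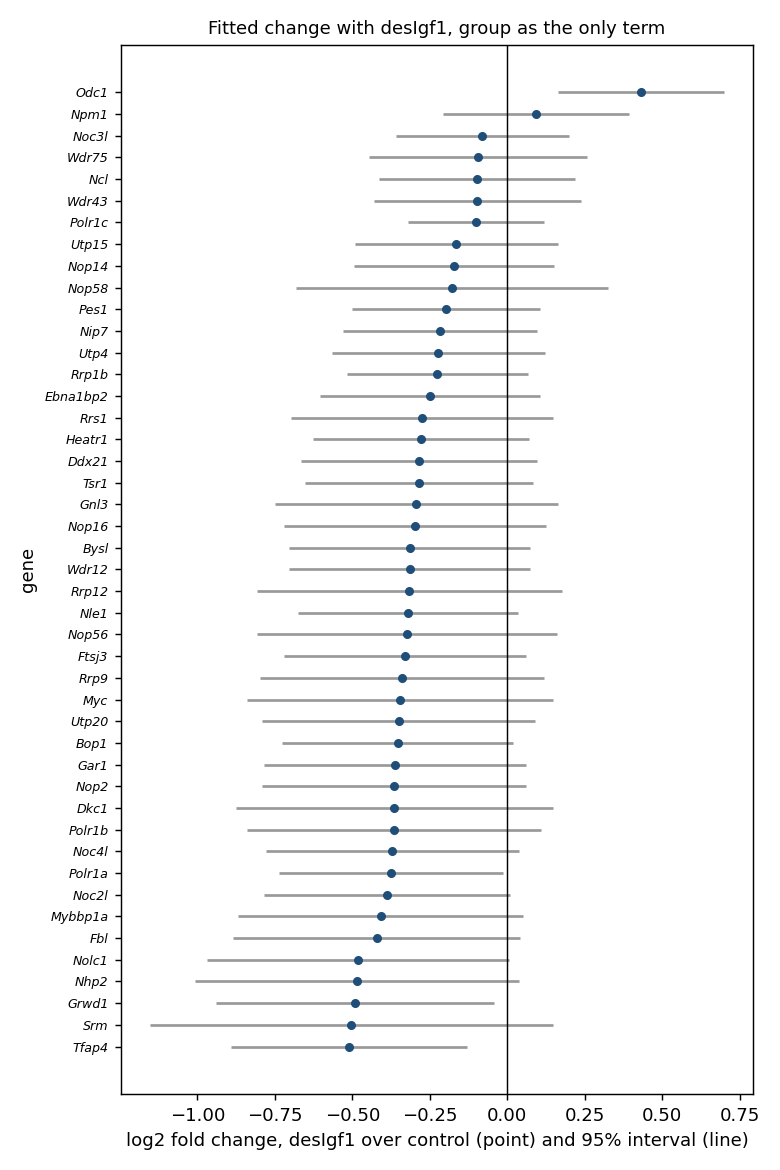
Fitted log2 fold change of each of the 45 genes, desIgf1 over control, from edgeR with group as the only term (points), with 95% intervals (lines), in order of the fold change. Points of 43 genes lie left of 0, and the intervals of 41 genes cross it.

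Myc itself (chromosome 15, 61985391 to 61990374, plus strand, GRCm38) gave 147, 120 and 175 CPM in desIgf1 libraries 1 to 3, against 210, 217 and 134 CPM in controls 1 to 3. The 2 highest values were controls 1 and 2, but control 3 was below 2 of the desIgf1 libraries, so the groups overlapped. The log2 fold change was -0.35 ± 0.21 (SE; 95% interval -0.84 to 0.15, edgeR adjusted p = 0.661). Tfap4 (chromosome 16, 4544661 to 4559854, minus strand) encodes AP4, a helix-loop-helix factor that MYC induces in activated T cells. It gave 17.6, 15.1 and 19.0 CPM with desIgf1, set against 25.3, 27.8 and 20.3 CPM in controls. The groups did not overlap, although desIgf1 library 3 and control 3 lay close together. Its log2 fold change of -0.51 ± 0.16 (95% interval -0.89 to -0.13) was the lowest of the 45 and had an adjusted p of 0.505 in edgeR.

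The pair of polyamine enzymes stood on opposite sides. Odc1, ornithine decarboxylase, makes putrescine and is rate-limiting for polyamine synthesis. It read 199, 188 and 244 CPM with desIgf1, against 152, 155 and 161 CPM in controls. All 3 desIgf1 libraries were above all 3 controls, which no other member showed, while 7.31% of all genes did. The log2 fold change was 0.43 ± 0.11 (95% interval 0.16 to 0.70), and it did not pass (edgeR adjusted p = 0.417). Of the 50-base windows of the Odc1 transcript, 42.2% also occur in transcripts of other annotated genes, and reads placed at several sites are not in the counts. The level of Odc1 is therefore uncertain. Srm, spermidine synthase, acts downstream of Odc1 and shares 2.4% of its windows. It gave 49.4, 31.7 and 71.1 CPM with desIgf1, set against 80.0, 77.2 and 58.4 CPM in controls. The lowest value was that of desIgf1 library 2, and desIgf1 library 3 was above control 3. The log2 fold change was -0.50 ± 0.28 (95% interval -1.15 to 0.15, edgeR adjusted p = 0.645), the widest interval of the 45.

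**Figure D2:**
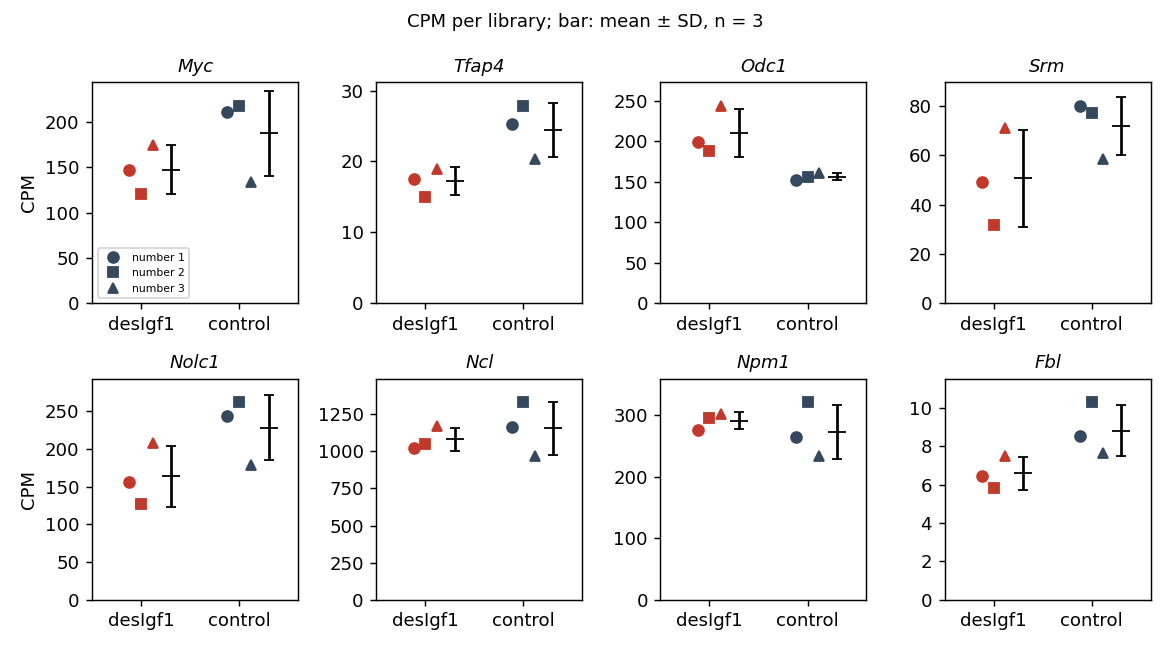
CPM of 8 genes in each library, desIgf1 left and control right, with a symbol for each replicate number and bars for mean ± SD (n = 3). Odc1 is higher in all 3 desIgf1 libraries, Tfap4 and Fbl are lower in all 3, and the other 5 overlap.

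Promoter sequence was examined because E-box factors head this group of genes. The windows came from RefSeq's GRCm38.p6 annotation, each from 250 bases before to 50 bases after a gene start, and 37 of the 45 genes had one. The MYC and MAX E-box CACGTG, which reads the same on both strands, was in the windows of 9 of the 37 (24.3%), and in those of 11.7% of the tested genes with a window. The AP4 E-box CAGCTG, also a palindrome, cannot overlap the first motif. It was in 6 of the 37 (16.2%) and in 17.8% of the tested genes with a window. Of the 9 CACGTG matches, 8 lay 3 to 41 bases after the start and 1 lay before it, in Nop2. The 9 matches are shown, with the E-box in capitals, since MYC with MAX is known to bind this motif.
Nop2: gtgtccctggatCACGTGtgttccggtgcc
Grwd1: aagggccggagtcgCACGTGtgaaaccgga
Mybbp1a: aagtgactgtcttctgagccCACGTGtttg
Nle1: tcggttctcctcCACGTGgggacgcaggat
Pes1: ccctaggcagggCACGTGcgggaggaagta
Tsr1: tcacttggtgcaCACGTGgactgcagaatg
Utp20: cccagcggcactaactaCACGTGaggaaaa
Utp4: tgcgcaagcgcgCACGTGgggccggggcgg
Wdr43: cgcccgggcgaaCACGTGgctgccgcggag

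Each run is 30 bases of GRCm38.p6 written 5′ to 3′ on the gene's strand. The Nop2 site is at chr6:125131811-125131840 on the plus strand, with the E-box starting 60 bases before the start. On the plus strand too are those of Mybbp1a (chr11:72441347-72441376), Tsr1 (chr11:74898092-74898121), Utp4 (chr8:106893643-106893672) and Wdr43 (chr17:71616220-71616249). On the minus strand are those of Grwd1 (chr7:45830740-45830769), Nle1 (chr11:82908355-82908384) and Utp20 (chr10:88826765-88826794). The Pes1 site, at chr11:3963965-3963994 on the plus strand, lies near an AP4 E-box of the same promoter, tcagacagccctCAGCTGgcggcgtggggt, at chr11:3963926-3963955. Pes1 was the only member with both. Fitted log2 fold changes had a median of -0.32 in the 9 members with CACGTG, and of -0.30 in the 28 with a window and no CACGTG. A match describes these letters and does not show binding.

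Among the genes of RNA polymerase I, Polr1a, its largest catalytic subunit, read 89.4, 83.7 and 105 CPM with desIgf1, against 134, 131 and 95.8 CPM in controls. Its log2 fold change was -0.38 ± 0.16 (95% interval -0.74 to -0.01, edgeR adjusted p = 0.608), and the number 3 libraries ran against the others. Polr1b, the second-largest subunit, gave 41.7, 38.8 and 55.3 CPM with desIgf1, set against 60.9, 70.1 and 44.1 CPM in controls. Mybbp1a, a nucleolar protein that binds MYB and acts in rRNA synthesis, read 257, 218 and 333 CPM with desIgf1, against 373, 419 and 281 CPM in controls (log2 -0.41 ± 0.20, edgeR adjusted p = 0.625). Polr1c, a subunit that RNA polymerases I and III share, had a smaller fitted change, and differences between these genes were not tested. It gave 50.2, 51.3 and 55.1 CPM with desIgf1, set against 57.9, 56.3 and 53.9 CPM in controls, a log2 fold change of -0.10 (95% interval -0.32 to 0.12).

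Fitted log2 fold changes of the abundant proteins of the nucleolus ran from -0.48 to 0.09, and differences between these genes were not tested. Ncl, nucleolin, read 1021, 1053 and 1169 CPM with desIgf1, against 1167, 1330 and 971 CPM in controls, a log2 fold change of -0.10 ± 0.14 (edgeR adjusted p = 0.851). Npm1, nucleophosmin, a histone and ribosome chaperone, gave 276, 295 and 302 CPM with desIgf1, set against 265, 321 and 234 CPM in controls. Its log2 fold change was 0.09 ± 0.13 (edgeR adjusted p = 0.853), and 40.9% of its 50-base windows occur in other annotated genes. The intervals of -0.41 to 0.22 for Ncl and -0.21 to 0.39 for Npm1 bound any change to well under 2-fold. Nolc1, a chaperone of snoRNPs, read 157, 126 and 207 CPM with desIgf1, against 244, 262 and 179 CPM in controls (log2 -0.48 ± 0.21, edgeR adjusted p = 0.608). Ddx21, an RNA helicase that links RNA polymerase I transcription to rRNA processing, gave 292, 251 and 382 CPM with desIgf1, set against 391, 397 and 338 CPM in controls (log2 -0.28 ± 0.16, edgeR adjusted p = 0.649). Gnl3, the nucleolar GTP-binding protein nucleostemin, had means of 68.9 ± 10.8 CPM with desIgf1 and 84.5 ± 19.2 CPM in controls (SD, n = 3 each).

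Box C/D snoRNPs place methyl groups on the ribose of rRNA. Fbl, fibrillarin, is their methyltransferase, and it read 6.46, 5.82 and 7.48 CPM with desIgf1, against 8.53, 10.3 and 7.65 CPM in controls. The groups did not overlap, with desIgf1 library 3 just below control 3, and the log2 fold change was -0.42 ± 0.20 (edgeR adjusted p = 0.625). Fbl had the fewest counts of the 45 genes, 245 to 439 per library, and 73% of its 50-base windows occur in transcripts of 3 other annotated genes, so its level is uncertain. Besides Odc1 (42.2%) and Npm1 (40.9%), Noc2l, Pes1, Tsr1 and Nop56 had shares of 20.1 to 37.6%, and the remaining members had 8.2% or less. Exons of Noc2l, Pes1, Tsr1 and Nop56 overlap a gene on the other strand. Windows shared at the same place count too, so how far these shares mean lost reads is unknown. The core proteins Nop56 and Nop58 had log2 fold changes of -0.32 and -0.18. Nop56 gave 125, 109 and 150 CPM with desIgf1, set against 170, 196 and 115 CPM in controls. Rrp9, a protein of the U3 snoRNP, read 33.6, 27.9 and 48.0 CPM with desIgf1, against 48.7, 46.6 and 43.3 CPM in controls (log2 -0.34 ± 0.20, edgeR adjusted p = 0.650).

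Box H/ACA snoRNPs turn uridine of rRNA into pseudouridine, and all 3 of their genes among the members had lower fitted levels. Nhp2, a core protein, gave 49.5, 36.0 and 68.4 CPM with desIgf1, set against 71.9, 80.2 and 63.5 CPM in controls (log2 -0.49 ± 0.22, 95% interval -1.01 to 0.04, edgeR adjusted p = 0.620). Gar1 read 38.6, 27.3 and 42.8 CPM with desIgf1, against 45.4, 52.4 and 41.9 CPM in controls (log2 -0.36 ± 0.18, edgeR adjusted p = 0.630). Dkc1, dyskerin, the pseudouridine synthase, is on the X chromosome and had means of 75.7 ± 18.9 CPM with desIgf1 and 97.5 ± 20.6 CPM in controls (SD, n = 3 each). Within number 2 the median difference of the 3 genes was -1.01, the lowest of the 8 roles, and within number 3 it was 0.11.

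The 11 genes of the small subunit processome and 40S assembly all had fitted log2 fold changes below 0, from -0.37 to -0.09 with a median of -0.28, and 0 passed (edgeR adjusted p = 0.625 to 0.870). Noc4l, which works with Nop14 in early 40S assembly, gave 73.5, 59.6 and 85.5 CPM with desIgf1, set against 99.8, 106 and 76.4 CPM in controls (log2 -0.37 ± 0.17). Bysl, bystin, a factor of late nuclear 40S assembly, read 35.1, 28.6 and 43.9 CPM with desIgf1, against 47.6, 45.6 and 40.7 CPM in controls (log2 -0.32 ± 0.17). Of the factors that bind the nascent transcript early, Wdr43, Wdr75, Utp15 and Utp4 had the smaller changes, -0.10, -0.09, -0.16 and -0.22, and Heatr1 had -0.28. Utp20, a very large protein of the processome, had -0.35, Rrp12 had -0.32, Tsr1 had -0.29 and Nop14 had -0.17. In all 11 genes desIgf1 library 3 was above control 3.

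The 14 genes of 60S assembly also all had fitted values below 0, from -0.49 to -0.08 with a median of -0.31. Grwd1, a chaperone of the ribosomal protein RPL3 in human cells, gave 27.4, 21.7 and 35.4 CPM with desIgf1, set against 40.1, 44.1 and 34.6 CPM in controls. Its log2 fold change was -0.49 ± 0.19 (95% interval -0.94 to -0.04, edgeR adjusted p = 0.583). Noc2l, an early 60S factor, read 166, 147 and 221 CPM with desIgf1, against 233, 264 and 202 CPM in controls (log2 -0.39 ± 0.17, edgeR adjusted p = 0.608). Bop1, Pes1 and Wdr12 form the PeBoW complex, and their log2 fold changes were -0.35, -0.20 and -0.32. Wdr12 gave 35.7, 27.1 and 42.8 CPM with desIgf1, set against 45.1, 43.1 and 43.2 CPM in controls. Its groups did not overlap, but desIgf1 library 3 missed the lowest control by less than 1 CPM (edgeR adjusted p = 0.635). Nop2, an rRNA methyltransferase, had -0.36, and Ftsj3, a second one, had -0.33. Nle1 had -0.32, Nop16 had -0.30, Rrs1 had -0.28, Ebna1bp2 had -0.25, Rrp1b had -0.23 and Nip7 had -0.22. Noc3l was nearest to 0 of the 14, at 37.1 ± 3.79 CPM with desIgf1 and 39.3 ± 2.77 CPM in controls (SD, n = 3 each).

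The groups did not overlap for 4 of the 45 members, where 13.5% of all genes did so. On the lower side were Tfap4, Fbl and Wdr12, a share close to the 6.18% of all genes. On the higher side was Odc1 alone, a smaller share than the 7.31% of all genes.

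Most of the 45 genes also had their highest and lowest libraries in common. The highest library was control 2 for 32 genes and control 1 for 12, and for Odc1 it was desIgf1 library 3. Of all genes tested, 33.0% were highest in control 1 or 2. The lowest library was desIgf1 library 2 for 37 genes, against 21.5% of all genes, and control 3 for 6. Within the desIgf1 group, library 3 was the highest for 44 of the 45 genes, and within the controls, control 3 was the lowest for 43. The members share libraries and are no repeated measurements.

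**Figure D3:**
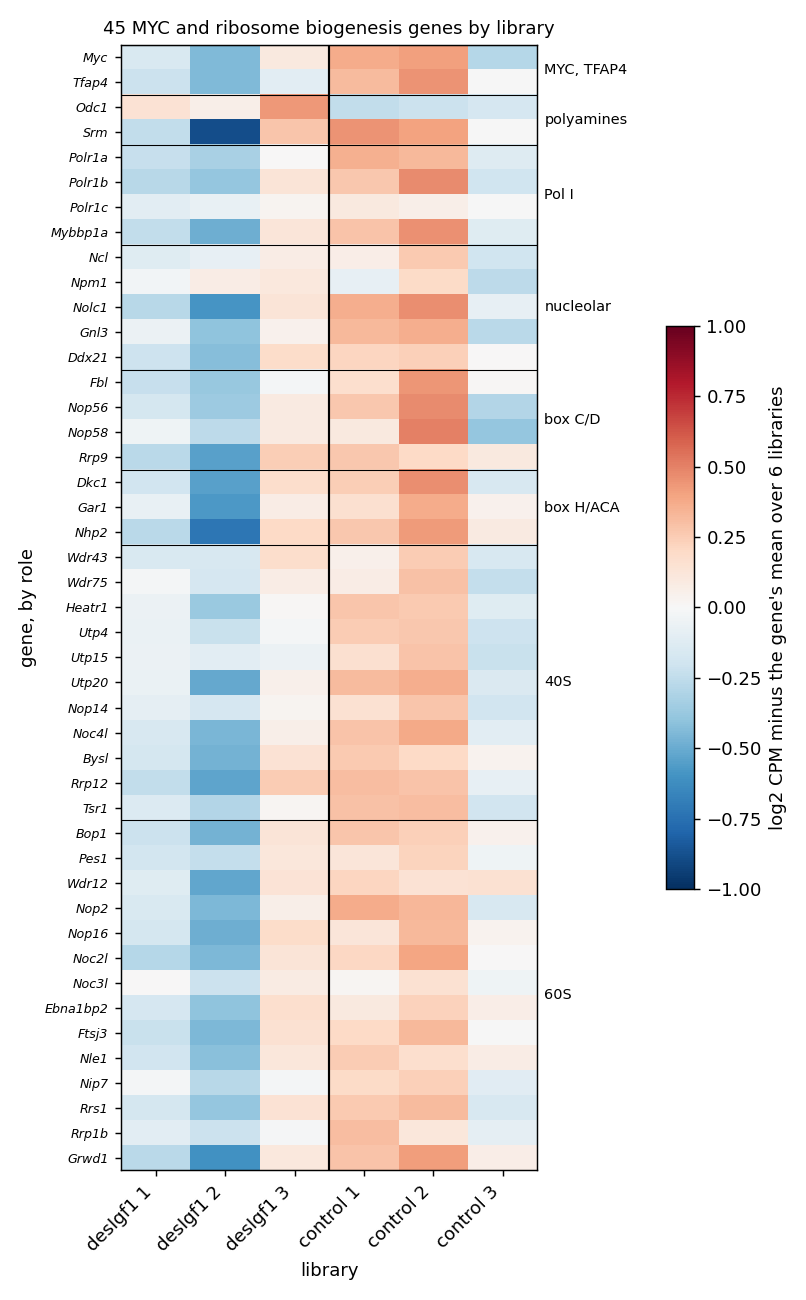
log2 CPM of each gene in each library minus that gene's mean over the 6 libraries, with desIgf1 libraries left of the line and controls right, and genes ordered by role. Controls 1 and 2 are high and desIgf1 library 2 is low for most genes, Odc1 runs the other way, and both number 3 libraries are near the middle.

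The difference between the groups was not the same within each replicate number. Same-numbered libraries deviated together from their group means over all genes, so desIgf1 libraries were also set against the control of the same number. Within number 1 the median difference of the 45 genes in log2 CPM was -0.42, with 43 genes lower with desIgf1. Within number 2 it was -0.71, with 44 lower. Within number 3 it was 0.16, with 3 lower, namely Tfap4, Fbl and Wdr12. Over all genes the median difference was -0.00011, 0.04 and 0.0016 in numbers 1, 2 and 3. The order of lower, lower and higher was shown by 40 of the 45 genes and by 15.4% of all genes. Being lower in all 3 numbers was shown by 3 members and 17.2% of all genes, and being higher in all 3 by Odc1 alone of the members and 20.9% of all genes. Each number has 1 library per group, so whether the numbers differ in their response was not tested.

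**Figure D4:**
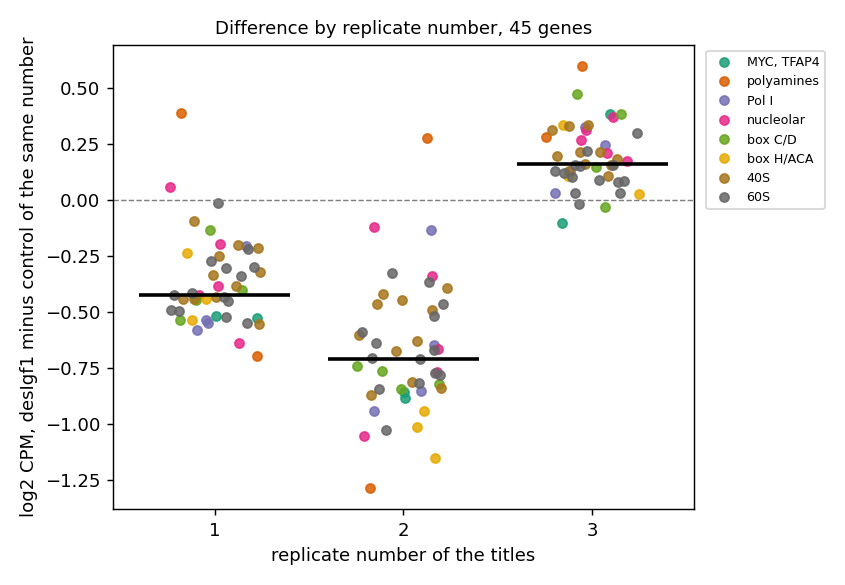
Difference in log2 CPM between the desIgf1 and the control library of the same replicate number, 1 point per gene, coloured by role, with black lines at the medians of -0.42, -0.71 and 0.16. Points of numbers 1 and 2 are mostly below 0 and those of number 3 mostly above it.

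The fits also changed with the libraries that were kept. With the replicate number as a block, edgeR called 0.318% of all genes and 0 of the 45, whose adjusted p-values were 0.166 (Odc1) or more. Without both number 3 libraries the blocked fit called 26 members, all lower, where 7.64% of all genes were called and 2.97% were called lower, with Srm at -0.99, Nolc1 at -0.84 and Myc at -0.68 (edgeR adjusted p = 0.00596, 0.00715 and 0.0130). Without both number 2 libraries it called 1, Odc1, which rose by 0.50 (edgeR adjusted p = 0.00730), where 4.42% of all genes were called and 2.41% were called higher, and without both number 1 libraries it called 0, where 0.513% of all genes were called. These fits have 1 residual degree of freedom. Without the block, no member was called when any 1 library was left out. At an unadjusted p under 0.05 there were then 27 members without desIgf1 library 3 (13.1% of all genes) and 27 without control 3 (13.7% of all genes). There were 2 without desIgf1 library 1 (4.83% of all genes) and 2 without control 1 (4.60% of all genes). There was 1 without desIgf1 library 2 (3.85% of all genes) and 1 without control 2 (8.84% of all genes). The blocked fits gave 40 members without both number 3 libraries (24.5% of all genes), 1 without both number 2 libraries (15.8%) and 1 without both number 1 libraries (5.54%), against 3 with all libraries (14.3%). The median log2 fold change was -0.41 without control 3, -0.50 without desIgf1 library 3, -0.23 without control 2 and -0.18 without desIgf1 library 2.

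Genes of the same pathway outside the 45 had medians nearer to 0. Of 39 other 40S assembly genes 0 passed, 32 had fitted values below 0 and the median log2 fold change was -0.11, with -0.14, -0.31 and 0.16 within numbers 1, 2 and 3. The smallest p-values there were those of Wdr46, at 51.5 ± 9.70 CPM with desIgf1 and 68.4 ± 2.78 CPM in controls, and Nob1, at 52.2 ± 5.85 CPM with desIgf1 and 64.6 ± 4.25 CPM in controls (SD, n = 3 each, edgeR adjusted p = 0.531 and 0.566). Of 49 other 60S assembly genes 0 passed, 40 were below 0 and the median was -0.11. Ddx24, an RNA helicase, was at 220 ± 13.1 CPM with desIgf1 and 263 ± 5.19 CPM in controls (edgeR adjusted p = 0.527). Nsa2 ran the other way, at 58.3 ± 8.94 CPM with desIgf1 and 45.3 ± 2.75 CPM in controls (edgeR adjusted p = 0.550). Of 12 further snoRNP genes 0 passed, 9 were below 0 and the median was -0.18. Tcof1, the RNA polymerase I cofactor treacle, was at 191 ± 21.05 CPM with desIgf1 and 224 ± 14.6 CPM in controls, and Shq1, a chaperone of dyskerin, at 9.25 ± 1.42 CPM with desIgf1 and 12.3 ± 2.22 CPM in controls (edgeR adjusted p = 0.620 and 0.628). Of 12 further RNA polymerase I genes 0 passed, 8 were below 0 and the median was -0.04. Taf1b, of the promoter selectivity factor, was at 41.8 ± 2.48 CPM with desIgf1 and 36.5 ± 3.76 CPM in controls, and Polr1e, a polymerase subunit, at 29.5 ± 3.91 CPM with desIgf1 and 33.9 ± 1.91 CPM in controls (edgeR adjusted p = 0.660 and 0.673).

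Of 38 MYC targets that act outside the nucleolus 0 passed and 30 had fitted values below 0, and the median log2 fold change was -0.19, with -0.25, -0.60 and 0.23 within numbers 1, 2 and 3. Cad, the enzyme that starts pyrimidine synthesis, read 140, 103 and 200 CPM with desIgf1, against 234, 265 and 174 CPM in controls (log2 -0.60 ± 0.25, edgeR adjusted p = 0.608). Ipo4, a nuclear import receptor, gave 54.0, 46.8 and 67.6 CPM with desIgf1, set against 73.1, 78.6 and 66.6 CPM in controls (log2 -0.37 ± 0.15, edgeR adjusted p = 0.601). Of 12 genes listed as repressed by MYC 0 passed, 5 were below 0 and the median was 0.12, with 0.19, 0.23 and 0.15 within numbers 1, 2 and 3. Each number has 1 library per group, and a link of these genes to the level of Myc was not tested. Id2, an inhibitor of helix-loop-helix factors, read 374, 310 and 304 CPM with desIgf1, against 246, 228 and 248 CPM in controls, with no overlap (log2 0.45 ± 0.11, edgeR adjusted p = 0.394). Whether MYC represses Id2 is uncertain, and so is its place in this list. Gadd45b, a stress response gene, was at 25.1 ± 3.46 CPM with desIgf1 and 18.7 ± 2.64 CPM in controls (edgeR adjusted p = 0.566).

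The partners and rivals of MYC had a median near 0. Of 11 genes of the MYC network 0 passed, 6 were below 0 and the median was -0.02, with -0.04, 0.01 and -0.0047 within numbers 1, 2 and 3. Mnt, a repressor that competes with MYC for MAX, gave 90.3, 83.8 and 75.8 CPM with desIgf1, set against 121, 101 and 94.6 CPM in controls, with no overlap (log2 -0.34 ± 0.13, edgeR adjusted p = 0.560). Mxd1, a further MAX partner that represses, was at 89.0 ± 35.2 CPM with desIgf1 and 62.0 ± 23.2 CPM in controls (edgeR adjusted p = 0.697). Of 10 other polyamine genes 0 passed, 7 were below 0 and the median was -0.07. Sms, spermine synthase, was at 17.6 ± 2.28 CPM with desIgf1 and 13.6 ± 2.40 CPM in controls, and Dohh, an enzyme of hypusine synthesis, at 33.9 ± 4.57 CPM with desIgf1 and 40.3 ± 2.03 CPM in controls (edgeR adjusted p = 0.628 and 0.630).

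Of 76 cytosolic ribosomal protein genes 0 passed, 38 were below 0 and the median was -0.01, with medians of -0.14, -0.02 and 0.06 within numbers 1, 2 and 3. The smallest p-values among them were on the higher side, with Rps15a at 424 ± 52.8 CPM with desIgf1 and 303 ± 34.99 CPM in controls, and Rpl39 at 83.0 ± 14.8 CPM with desIgf1 and 60.4 ± 7.08 CPM in controls (edgeR adjusted p = 0.426 and 0.527). Of 9 p53 targets tied to nucleolar stress 0 passed and 8 were below 0, with a median of -0.33 and with -0.37, -0.48 and -0.19 within numbers 1, 2 and 3. Aen, an exonuclease gene, read 39.3, 27.6 and 41.8 CPM with desIgf1, against 59.2, 46.4 and 50.1 CPM in controls, with no overlap (log2 -0.52 ± 0.18, edgeR adjusted p = 0.527). Zmat3, an RNA-binding zinc finger gene, was at 62.5 ± 11.1 CPM with desIgf1 and 87.1 ± 15.5 CPM in controls (edgeR adjusted p = 0.560).

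Cell cycle genes had their highest and lowest libraries in common with most of the 45, control 2 and desIgf1 library 2. Of 20 S phase genes 0 passed and 20 were below 0, with a median log2 fold change of -0.40 and with -0.23, -1.14 and 0.22 within numbers 1, 2 and 3. Their summed level was 3391, 2491 and 3758 CPM in desIgf1 libraries 1 to 3 and 4034, 5269 and 3296 CPM in controls 1 to 3. Mcm7, of the replicative helicase, was at 165 ± 38.3 CPM with desIgf1 and 233 ± 43.5 CPM in controls, and Cdt1, a licensing factor, at 71.0 ± 12.05 CPM with desIgf1 and 105 ± 32.0 CPM in controls (edgeR adjusted p = 0.595 and 0.608). Of 20 G2 and M phase genes 0 passed and 20 were below 0, with a median of -0.31 and with -0.06, -1.04 and 0.24 within the 3 numbers, and sums of 4009, 3099 and 4255 CPM with desIgf1 and 4255, 6250 and 3707 CPM in controls. Bub1b and Plk1, mitotic kinases, gave 134 ± 18.9 and 66.0 ± 18.9 CPM with desIgf1, set against 181 ± 52.0 and 91.0 ± 20.8 CPM in controls (edgeR adjusted p = 0.625 and 0.634). Within number 1 the median difference was -0.42 in the 45 genes, -0.23 in S phase genes and -0.06 in G2 and M phase genes. In the same order, the medians were -0.71, -1.14 and -1.04 within number 2 and 0.16, 0.22 and 0.24 within number 3. The part of cell cycle genes in the differences of the 45 was not tested.

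**Figure D5:**
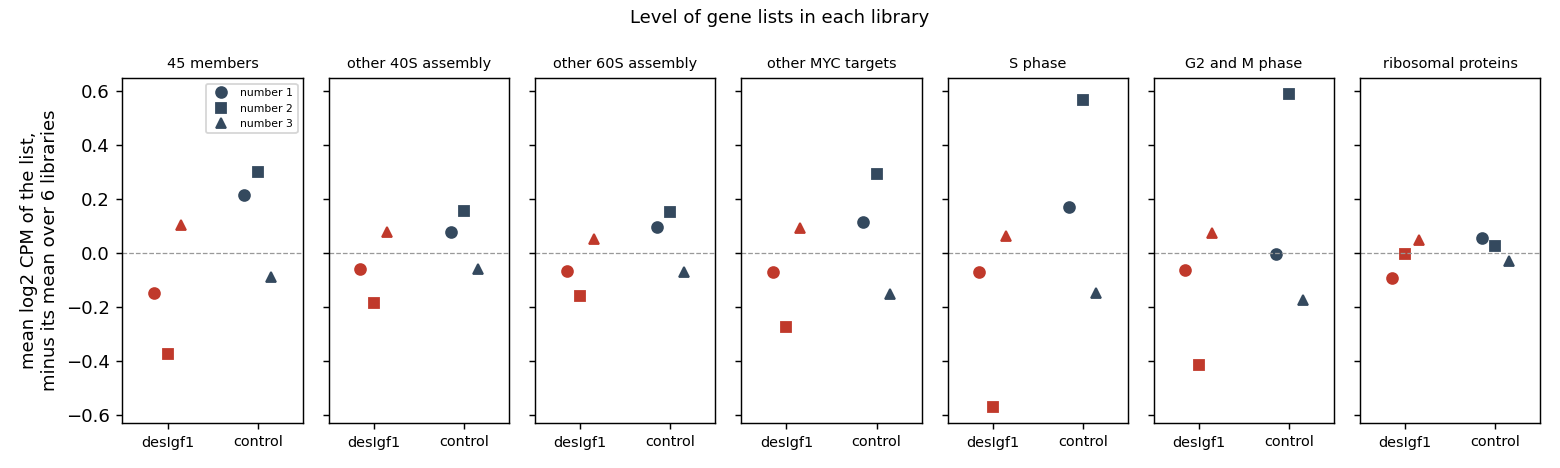
Mean log2 CPM of 7 gene lists in each library, minus the list's mean over the 6 libraries, with desIgf1 left and control right and a symbol for each replicate number. The 45 genes span -0.37 in desIgf1 library 2 to 0.30 in control 2, S phase genes span -0.57 to 0.56 in the same libraries, and ribosomal protein genes stay between -0.09 and 0.06.

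Levels were compared between genes as CPM per kilobase of all annotated exons. Ncl and Npm1 were the most abundant, at 106 and 109 with desIgf1 and 113 and 103 in controls. On this scale the libraries of the pair overlapped in both groups. Myc was at 54.2 with desIgf1 and 68.9 in controls, and Odc1 at 61.8 with desIgf1 and 45.8 in controls. Fbl was lowest, at 1.56 with desIgf1 and 2.10 in controls, and Wdr12 came next, at 2.94 with desIgf1 and 3.66 in controls. Per kilobase of the longest principal transcript, a length chosen after seeing the data, Ncl was at 132 with desIgf1 and 141 in controls and Npm1 at 178 with desIgf1 and 167 in controls. All 3 desIgf1 libraries of Npm1 (169 to 185) were then above those of Ncl (124 to 143), while the controls still overlapped. The choice of length moved 13 of the 45 levels by over 1.5 times and changed the order of genes. Myc was at 108 with desIgf1 and 137 in controls on that scale, and Odc1 at 95.3 with desIgf1 and 70.6 in controls. Nop58 moved the most, to 84.4 with desIgf1 and 95.6 in controls, where the exon scale had 13.4 with desIgf1 and 15.2 in controls. Fbl, at 5.50 with desIgf1 and 7.37 in controls, was then above Wdr12, which was the lowest at 3.51 with desIgf1 and 4.38 in controls. The order of levels between genes therefore depends on the length used. Reads placed at several sites are not in the counts, so the places of Fbl, Npm1 and Odc1 in this order are also uncertain. Of their 50-base windows 73%, 40.9% and 42.2% occur in other annotated genes.

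A feature the choice of genes did not use was that several carry snoRNA genes within their own bounds on the same strand. This held for 8 of the 45 (17.8%) and for 217 of the 11962 tested protein-coding genes (1.81%). Nop56 held 5 (Snord57 and Snord110 among them), Nop58 held 4 (Snord11 and Snord70 among them), Gnl3, Ncl and Wdr43 held 3 each, Tsr1 held 2, and Dkc1 and Odc1 held 1 each. The levels of the snoRNAs themselves were not analysed here, since the libraries were made from polyadenylated RNA.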

How the data were processed

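RNA of 6 libraries, 3 desIgf1 and 3 control, was sequenced with a stranded mRNA kit, per the labels' protocols. The deposited values are raw counts per Ensembl gene, made by the authors and not normalized. The submitters' processing notes list HTSeq 0.7.2 and STAR 2.5.3, besides Trim Galore 0.4.5, R 3.4.3, SAMtools 0.1.18 and DESeq2 1.18.1, and the build GRCm38 (mm10), with no settings. Neither the annotation release nor the strand setting is stated in the labels. The submitters' names for the count files hold the word reverse, which is also a strand setting of HTSeq, but its meaning there is not explained. Under an unstranded count, 17 members with exons that overlap a gene on the other strand would be uncertain: Polr1a, Mybbp1a, Gnl3, Nop56, Rrp9, Dkc1, Nhp2, Heatr1, Nop14, Bysl, Tsr1, Bop1, Pes1, Wdr12, Noc2l, Nle1 and Rrp1b. Of the uniquely placed reads 13.5 to 15.7% lay outside genes, and 0.712 to 0.761% fitted several genes. Entries for reads without a unique place, 46.4 to 48.7% of all, are in no gene count. The 5 summary entries entered neither library sizes nor tests. Symbols came from GENCODE M21 (37693 of 39179 identifiers matched).

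The test was edgeR's quasi-likelihood test (edgeR 4.0.16, R 4.3.3) with group as the only term, TMM scaling, filterByExpr at 10 counts and robust fitting. Benjamini-Hochberg adjustment ran over all 13846 genes, at a threshold of 0.05. CPM use TMM factors, and log2 CPM for differences within numbers use a prior count of 2. The SE is the size of the log2 fold change divided by the square root of F, and intervals use the moderated degrees of freedom. Alternatives used DESeq2 1.42.0, limma 3.58.1 (voom), other scalings and filters, a block on the replicate number, and libraries left out. The scripts were tested on simulated data. Whether each library had its own culture or animal is not stated. The p-values then measure only how these libraries spread, which may be technical. Libraries of a group were no copies of each other (chi-square per degree of freedom 37.0 to 119).

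Each group's titles carry the numbers 1 to 3. Deviations from the group means of same-numbered libraries correlated across genes at 0.59, 0.32 and 0.55, and without X and Y genes at 0.51, 0.29 and 0.55. The numbers were therefore treated as pairs in the blocked fits and in the differences within numbers, and not in the main test. This rests on the data alone, since no label states a pairing.

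The members, lists and tests were chosen with earlier results of these data known. Members were assigned to roles, and named genes were Myc, Tfap4, Odc1, Srm, Ncl, Npm1 and Fbl, the 2 smallest p-values of each role, non-overlapping members, extremes of level and fold change, and the 2 smallest p-values of each pathway list at a mean of at least 1 CPM. Further members are named with fewer values, so that each of the 45 is accounted for. Cdkn1a stood in the repressed and the p53 list and Tyms in the MYC target and the S phase list. Listed symbols with no row in the files (3 RNA polymerase I, 2 40S, 1 60S and 1 snoRNP, mostly newer or older names) were dropped. Shared 50-base windows were counted in GENCODE M21 transcripts on either strand, a step added after member values were seen. Features of the member proteins were planned and not analysed here.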

Additional observations from a re-analysis of the deposited data

How the results depend on the processing

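Over all genes, 0 were called in the main test, 16 with no filter, 208 with DESeq2 and 44 with the replicate number as a block. The block changed no call of a member. Members at an unadjusted p under 0.05 numbered 4 in the main test, 9 with no filter and 8 with DESeq2. Of all genes 8.16%, 6.36% and 6.17% did so, the first of 13846 genes and the others of 22504, low counts included. Leaving out libraries gave 1 to 27 such members without the block, and leaving out both libraries of a number gave 1 to 40 with it (3.85 to 13.7% and 5.54 to 24.5% of all genes). There the blocked fits called 0 to 26 members and 72 to 1069 genes (620 without number 2). The median log2 fold change of the 45 stayed below 0 in each alternative run, from -0.50 to -0.18 with 1 library left out and, with the block, from -0.57 without number 3 to -0.10 without number 2. Other scalings, filters and tools left it between -0.33 and -0.31. The causes of these shifts were not tested. Per kilobase of the principal transcript in place of all exons, a length chosen after seeing the data, 13 of the 45 levels in controls moved by over 1.5 times, Nop58 the most (95.6 in place of 15.2), Myc was at 137 in place of 68.9 and Ncl at 141 in place of 113. Fbl was then above Wdr12. Fbl, with the fewest counts, had the least depth of the 45. Most members' differences were within the error of 3 libraries per group.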
